A study of Mus musculus with 7 samples.

Results

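The resting and central factors of regulatory T cells (Treg cells) were followed here as 9 genes, namely Tcf7, Lef1, Il7r, S1pr1, Foxo1, Foxo3, Foxp1, Bach2 and Satb1, each found by its symbol among the 57180 genes of the table. All 9 were among the 15838 genes tested. The samples were Treg cells infiltrating B16-F0 tumours, a mouse melanoma line grown in host mice, and they were sorted by FOXP3 into 3 FOXP3-high and 4 FOXP3-low samples. All mice, in both groups, carried Foxp3-Cre-YFP, which places Cre recombinase and a yellow fluorescent protein under the Foxp3 gene, and their genotype is otherwise labelled WT. The sorting gates, the age and sex of the mice and whether each sample came from its own mouse are not given in the labels, so p-values cover only the sample-to-sample spread, part or all of which could be technical. The comparison asks how the transcripts of tumour Treg cells with more FOXP3 differ from those with less.

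A resting or central Treg cell circulates through blood and lymphoid organs, survives on interleukins and keeps genes of effector function low, whereas an effector Treg cell is activated, lives in tissue and divides more. TCF1 (encoded by Tcf7) and LEF1 are related DNA-binding factors that can act with beta-catenin. FOXO1 and FOXO3 are forkhead factors that PI3K and AKT signalling drives out of the nucleus, and they are known to act on Il7r, on Klf2 and, through KLF2, on S1pr1. BACH2 restrains effector genes, FOXP1 is a close relative of FOXP3, and SATB1 folds chromatin around T cell genes.

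Total counts were 9048771 to 11202260 in FOXP3-high and 12177761 to 14546999 in FOXP3-low. Levels are given in CPM, counts scaled to a library size of 1000000 after TMM normalization. Foxp3 followed the labels, at 697 ± 95.3 CPM in FOXP3-high (SD, n = 3) and 357 ± 44.3 CPM in FOXP3-low (n = 4). Of the 17 T cell identity genes 15 were higher in FOXP3-high and 1 lower, where 21.8% and 24.6% of all genes tested were higher and lower. Of 9 Treg identity genes 7 were higher, and these 7 include Foxp3, which the samples were sorted by. Whether the sort read FOXP3 protein or the yellow fluorescent protein is not stated in the sources used here. None of the T cell and Treg identity genes was at 0 in either group. The summed macrophage and monocyte markers, 18 genes, ran from 752 to 785 CPM in FOXP3-high and from 2520 to 3095 CPM in FOXP3-low, with 16 of the 18 lower in FOXP3-high. Neutrophil markers summed to 109 to 245 CPM in FOXP3-high and 2734 to 3214 CPM in FOXP3-low (7 of 8 tested lower, Ly6g at 0 in FOXP3-high), and dendritic cell and MHC class II markers to 194 to 317 CPM in FOXP3-high and 2351 to 3627 CPM in FOXP3-low (12 of 12 lower). B cell and plasma cell markers stood at 92.7 to 123 CPM in FOXP3-high against 398 to 529 CPM in FOXP3-low (4 of 6 tested lower), and melanoma markers at 3298 to 4529 CPM in FOXP3-high against 1335 to 2413 CPM in FOXP3-low, with 11 of 11 tested genes higher. In such bulk samples more cells of a type and more RNA per cell cannot be told apart. The part of these other transcripts in the differences below was not tested.

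All 9 genes were higher in FOXP3-high than in FOXP3-low by the quasi-likelihood test of edgeR, at a p under 0.05 after Benjamini-Hochberg adjustment over all genes tested, although Foxo3 turned to -0.0799 on the log2 scale when libraries were scaled to T cell identity genes. Of all genes tested 21.8% were called higher and 24.6% lower with TMM. The median log2 fold change of the 9 genes was 1.10, against 0.01 over all genes tested. In 8 of the 9 every FOXP3-high library lay above every FOXP3-low library, an order seen in 23.9% of genes tested. Foxo3 was the exception. S1pr1, Il7r and Tcf7 rose most, by 3.92-fold, 3.42-fold and 3.36-fold, and under 1% of tested genes had a larger log2 fold change than any of these (0.328%, 0.518% and 0.568%). Bach2 and Lef1 rose 2.18-fold and 2.15-fold. Satb1, Foxo1 and Foxp1 rose 1.79-fold, 1.68-fold and 1.64-fold, and Foxo3 1.29-fold. The summed level of the 9 genes was 1060 ± 72.4 CPM in FOXP3-high and 420.2 ± 8.22 CPM in FOXP3-low.

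**Figure D1:**
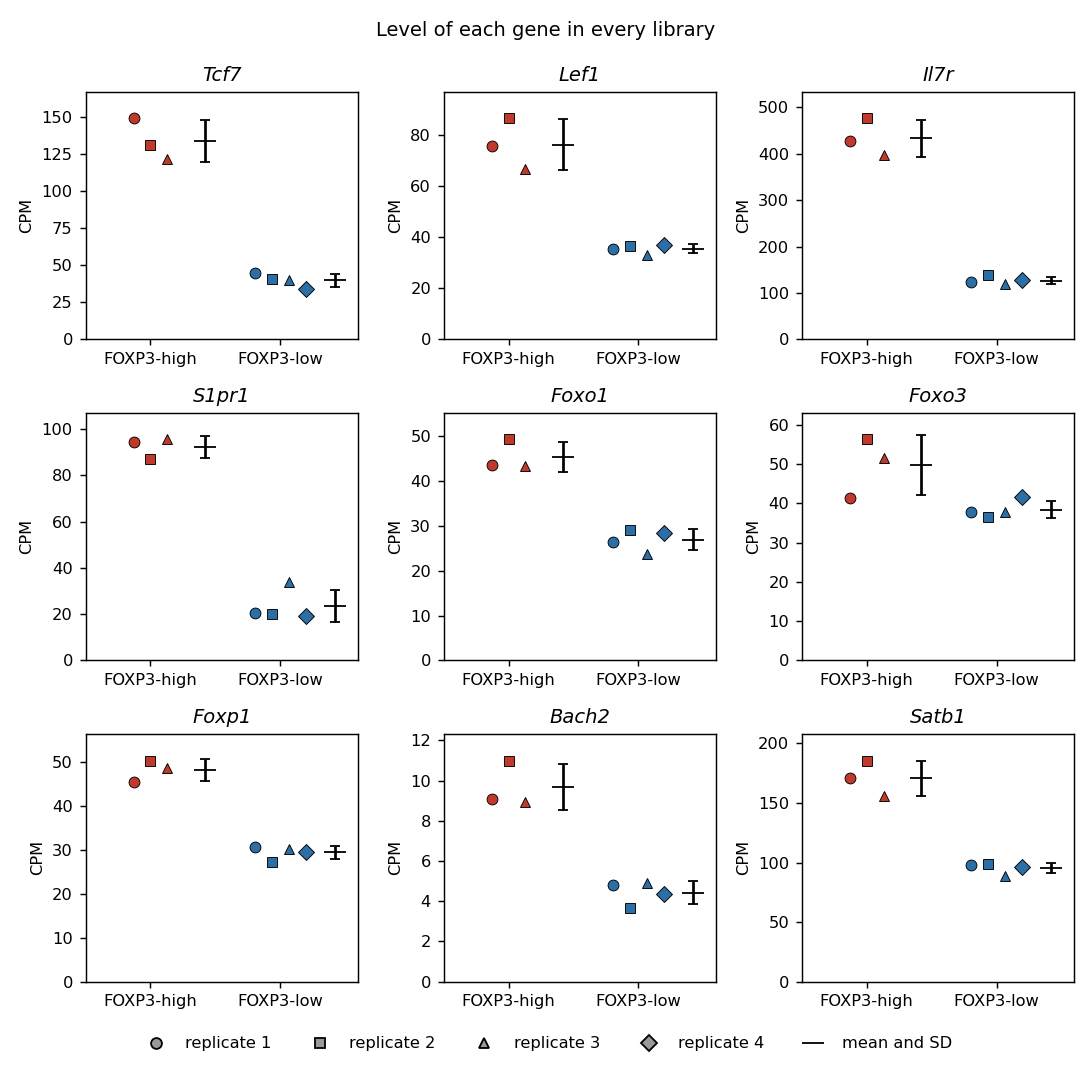
CPM of each of the 9 genes in the 3 FOXP3-high libraries (left, red) and the 4 FOXP3-low libraries (right, blue), with marker shapes for the replicate number and a black bar for the mean and SD. The groups are apart in 8 panels and overlap for Foxo3, where FOXP3-high replicate 1 (41.4 CPM) lies beside FOXP3-low replicate 4 (41.7 CPM), and FOXP3-low replicate 3 stands above the other FOXP3-low libraries for S1pr1.

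The sequences before the transcription start are shown for the 4 of the 9 genes with a single RefSeq start, a set that holds Il7r, which rose 3.42-fold, and Foxo3, which had the smallest rise, 1.29-fold. They come from RefSeq (build GRCm38.p6, not the GRCm39 of the gene coordinates), run 5′ to 3′ and end at the base before the start, and capitals mark a match to ACTTCCTG, the core of an ETS factor site.
Il7r, chr15:9529877-9530126, minus strand: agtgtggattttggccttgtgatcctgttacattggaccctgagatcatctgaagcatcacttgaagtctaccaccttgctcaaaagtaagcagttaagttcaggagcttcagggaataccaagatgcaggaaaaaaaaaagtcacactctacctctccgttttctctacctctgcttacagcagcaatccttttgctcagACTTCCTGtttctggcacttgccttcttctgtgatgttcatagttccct
Bach2, chr4:32417185-32417434, plus strand: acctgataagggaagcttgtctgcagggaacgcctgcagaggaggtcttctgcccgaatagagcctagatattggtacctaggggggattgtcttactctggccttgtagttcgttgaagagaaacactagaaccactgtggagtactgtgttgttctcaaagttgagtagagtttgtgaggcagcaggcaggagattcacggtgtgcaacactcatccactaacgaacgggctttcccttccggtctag
Foxo1, chr3:52268087-52268336, plus strand: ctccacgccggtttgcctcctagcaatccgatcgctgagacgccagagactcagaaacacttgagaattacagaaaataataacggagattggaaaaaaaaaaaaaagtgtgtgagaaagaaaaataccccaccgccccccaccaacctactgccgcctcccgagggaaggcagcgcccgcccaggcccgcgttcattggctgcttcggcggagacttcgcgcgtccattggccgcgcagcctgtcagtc
Foxo3, chr10:42276696-42276945, minus strand: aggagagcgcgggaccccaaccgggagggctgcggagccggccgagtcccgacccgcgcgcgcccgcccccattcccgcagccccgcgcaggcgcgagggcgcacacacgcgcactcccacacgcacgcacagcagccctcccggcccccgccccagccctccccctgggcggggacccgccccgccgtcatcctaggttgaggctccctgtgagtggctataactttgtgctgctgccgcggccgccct

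The Il7r and Foxo3 sequences differed most in composition. The 250 bases before the Il7r start had 44.0% G and C and 1 CpG, and those before the Foxo3 start 76.4% and 31 CpG, where the median of 32851 promoters was 52.4% and 6 CpG. The Foxo1 window had 56.0% and 20 CpG, and the Bach2 window 50.4% and 7 CpG. Motifs were searched on both strands in these 250 bases, GTAAACA for forkhead factors, CTTTGAT for TCF and LEF factors, ACTTCCTG for ETS factors and TGANTCA for AP-1, none of which contains another. Only the ETS letters were found in the 4 windows shown, 49 bases before the Il7r start, and they occur in 2.69% of all promoters of this length. The forkhead, TCF-LEF and AP-1 letters occur in 3.17%, 3.21% and 6.75% of promoters. Tcf7, Lef1, Foxp1 and Satb1 have 2, 4, 3 and 5 starts in the table, and among these windows the ETS letters were found before 1 start of Lef1 and 1 of Satb1. S1pr1 had no entry in that table. A match describes these letters only and is not a measured binding site.

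Tcf7 (ENSMUSG00000000782, chromosome 11, 52143198 to 52174158, minus strand, GRCm39) had 149, 131 and 121 CPM in the FOXP3-high libraries, against 44.7, 40.5, 39.9 and 34.1 CPM in the FOXP3-low libraries. The lowest FOXP3-high library was 2.72 times the highest FOXP3-low library. The log2 fold change was 1.75 ± 0.1 (SE; edgeR adjusted p = 1.19e-06). Lef1 (ENSMUSG00000027985, chromosome 3, 130904120 to 131018005, plus strand) had 75.8, 86.8 and 66.7 CPM in FOXP3-high, against 35.4, 36.7, 33 and 37.0 CPM in FOXP3-low. Its FOXP3-low libraries lay close together, with a coefficient of variation of 5.11%, and its FOXP3-high libraries varied more, by 13.2%. The log2 fold change of Lef1 was 1.10 ± 0.093 (edgeR adjusted p = 1.14e-05).

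Tcf7 was also set against Lef1 within each library. The log2 ratio of Tcf7 to Lef1 within a library averaged 0.81 ± 0.20 in FOXP3-high and 0.16 ± 0.20 in FOXP3-low (SD, n = 3 and 4), with no overlap between groups. An exact permutation test of that difference of 0.65, a 1.57-fold shift, gave a two-sided p of 0.0571 (0.0735 when adjusted over 9 such ratios), and 0.0571 is the smallest p that 3 against 4 samples allow. Apart from the 0.5 CPM added to each level before the log, a ratio within a library does not depend on how libraries are scaled. Per length, in TPM (transcripts scaled to the same total in each library), Tcf7 made up 79.2% to 81.9% of the TCF/LEF family in FOXP3-high and 64.6% to 72.1% in FOXP3-low. The family members Tcf7l1 and Tcf7l2, looked at after their values were seen, were low throughout. Tcf7l2 was at 1.34 ± 0.407 TPM in FOXP3-high and 3.04 ± 0.330 TPM in FOXP3-low (log2 fold change -1.34, edgeR adjusted p = 8.28e-04).

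Of 22 tested genes of the TCF/LEF family and the Wnt-beta-catenin pathway, 12 were higher and 1 lower in FOXP3-high (21.8% and 24.6% of all genes). Their median log2 fold change was 0.35 against 0.01 for all genes. When libraries were scaled to the 17 T cell identity genes these counts became 3 higher and 7 lower, where 5.58% and 49.0% of all genes were called higher and lower. Without FOXP3-high replicate 1 the number higher was 7, and without FOXP3-high replicate 3 or FOXP3-low replicate 3 the number lower was 2. Axin2, a feedback inhibitor of the pathway and a widely used readout of TCF-beta-catenin activity, had the smallest adjusted p of the list. It stood at 47.2 ± 1.90 CPM in FOXP3-high and 17.8 ± 0.928 CPM in FOXP3-low (log2 fold change 1.41 ± 0.0742, edgeR adjusted p = 8.07e-07). Bcl9l, a beta-catenin cofactor, rose by a log2 fold change of 0.86. Apc, a scaffold of the complex that degrades beta-catenin, rose by 0.52 with TMM and did not pass when scaled to T cell identity genes (0.07, adjusted p = 0.502). Bcl9l overlaps the gene model Gm47205 on the opposite strand, which holds 10.7% as many counts.

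Il7r (ENSMUSG00000003882, chromosome 15, 9505874 to 9530262, minus strand), the interleukin-7 receptor alpha chain, had the most counts of the 9 genes, 1519 to 4979 per library. Its level was 427, 476 and 397 CPM in the FOXP3-high libraries, against 124, 138, 118 and 127 CPM in the FOXP3-low libraries. The groups were far apart relative to their spread, with coefficients of variation of 9.26% in FOXP3-high and 6.37% in FOXP3-low. The log2 fold change was 1.77 ± 0.072 (edgeR adjusted p = 2.24e-07). Il2ra, the interleukin-2 receptor alpha chain of activated and regulatory T cells, was at 475 ± 49.7 CPM in FOXP3-high and 533 ± 26.5 CPM in FOXP3-low and did not pass the test (log2 fold change -0.17, edgeR adjusted p = 0.0828), but it passed as lower in 5 of 17 alternatives, which were T cell identity scaling (-0.62), no filter on low counts, the DESeq2 Wald test, and the fits without FOXP3-high replicate 2 (-0.23) or without FOXP3-low replicate 3 (-0.21). The ratio of Il7r to Il2ra was 3.83-fold higher in FOXP3-high, with log2 ratios of -0.21 to -0.03 in FOXP3-high and -2.14 to -1.99 in FOXP3-low (exact permutation p = 0.0571, two-sided, adjusted p = 0.0735).

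Among the other genes of interleukin-7 receptor signalling, 7 of 13 tested were higher in FOXP3-high and none lower, with a median log2 fold change of 0.41. With T cell identity scaling the counts were 2 higher and 6 lower. The shares of all genes, higher and lower, were 21.8% and 24.6% with TMM and 5.58% and 49.0% with T cell identity scaling. Il2ra was the 1 lower gene without FOXP3-high replicate 2 or without FOXP3-low replicate 3. Stat5b, a transcription factor that the receptor activates, was at 275 ± 36.0 CPM in FOXP3-high and 139.8 ± 5.61 CPM in FOXP3-low (log2 fold change 0.98 ± 0.08, edgeR adjusted p = 9.69e-06). Bcl2, the survival gene, was at 42.5 ± 3.13 and 21.5 ± 2.11 CPM in FOXP3-high and FOXP3-low (log2 fold change 0.98, edgeR adjusted p = 2.84e-05), and it overlaps D630008O14Rik on the opposite strand, which holds 22.7% as many counts. Jak1, a kinase of the receptor, rose by a log2 fold change of 0.41, which turned to -0.0436 with T cell identity scaling (adjusted p = 0.504). Tslp had no count in any library, and Il7 did not pass the filter on low counts.

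S1pr1 (ENSMUSG00000045092, chromosome 3, 115504082 to 115508721, minus strand), the sphingosine 1-phosphate receptor that lets lymphocytes leave tissue, had 94.5, 86.9 and 95.6 CPM in the FOXP3-high libraries, against 20.6, 20.3, 33.98 and 19.1 CPM in the FOXP3-low libraries. FOXP3-low replicate 3 stood apart from the other FOXP3-low libraries, and the groups still did not overlap. The log2 fold change was 1.97 ± 0.18 (edgeR adjusted p = 1.997e-05), and without FOXP3-low replicate 3 it was 2.20 ± 0.0805, a 4.58-fold difference (adjusted p = 2.10e-07). S1pr1 is also known as a gene of endothelial cells, which line blood vessels. The summed endothelial markers, 10 genes, were at 74.3 to 382 CPM in FOXP3-high and 105 to 351 CPM in FOXP3-low, and none of the 10 passed the test. They were highest in the libraries numbered 3, at 382 CPM in FOXP3-high and 351 CPM in FOXP3-low. In FOXP3-high replicate 2 the summed endothelial markers were lowest, at 74.3 CPM. Pecam1 held 69.0 CPM of that sum, while Cdh5, which encodes VE-cadherin, was at 1 CPM and Tie1 at 0. This Pecam1 level was above FOXP3-low replicates 1, 2 and 4 (54.0, 63.6 and 58.9 CPM). It was below FOXP3-low replicate 3 (122 CPM) and FOXP3-high replicates 1 and 3 (108 and 140 CPM). S1pr1 was at 86.9 CPM in FOXP3-high replicate 2. Without both libraries numbered 3 the log2 fold change of S1pr1 was 2.18 (edgeR adjusted p = 1.87e-07). The part of endothelial RNA in the S1pr1 difference was not tested.

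**Figure D2:**
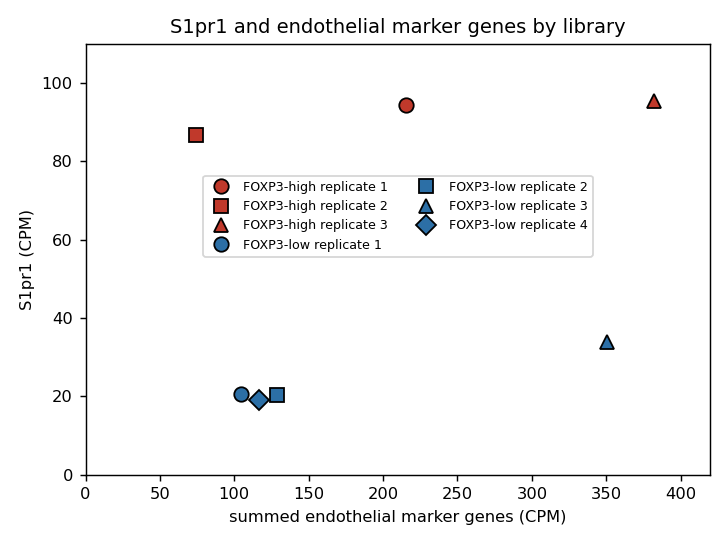
S1pr1 level (CPM, vertical) against the summed level of 10 endothelial marker genes (CPM, horizontal) in each library, FOXP3-high in red and FOXP3-low in blue. The 3 FOXP3-high libraries lie between 86.9 and 95.6 CPM of S1pr1 over an endothelial range of 74.3 to 382 CPM, and FOXP3-low replicate 3, with 351 CPM of endothelial markers, has 33.98 CPM of S1pr1.

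Of the 16 other tested genes of the sphingosine 1-phosphate pathway, 5 were higher and 4 lower in FOXP3-high, with a median log2 fold change of 0.08 (2 higher and 6 lower with T cell identity scaling). The shares of all genes were 21.8% and 24.6% (5.58% and 49.0% with T cell identity scaling). Cd69, whose protein pulls S1PR1 from the cell surface and so acts against it, was itself higher, at 127 ± 16.3 CPM in FOXP3-high and 49.9 ± 2.13 CPM in FOXP3-low (log2 fold change 1.34 ± 0.0855, edgeR adjusted p = 2.12e-06). The log2 ratio of S1pr1 to Cd69 overlapped between the groups, at -0.74 to -0.25 in FOXP3-high and -1.34 to -0.50 in FOXP3-low (exact permutation p = 0.114, two-sided, adjusted p = 0.129). Klf2, which activates S1pr1, was at 40.5 ± 3.46 CPM in FOXP3-high and 17.8 ± 1.95 CPM in FOXP3-low (log2 fold change 1.19 ± 0.103, edgeR adjusted p = 1.39e-05). Gnai2, the G protein through which S1PR1 signals, was slightly lower in FOXP3-high (log2 fold change -0.30, edgeR adjusted p = 6.46e-04). Among the receptors of the family, seen per length, S1pr1 held 82.7% to 85.8% of TPM in FOXP3-high and 60.5% to 73.3% in FOXP3-low.

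Foxo1 (ENSMUSG00000044167, chromosome 3, 52175757 to 52260642, plus strand) had 43.6, 49.3 and 43.3 CPM in FOXP3-high, against 26.5, 29.1, 23.8 and 28.4 CPM in FOXP3-low, without overlap (log2 fold change 0.75 ± 0.0911, edgeR adjusted p = 1.19e-04). Foxo3 (ENSMUSG00000048756, chromosome 10, 42057837 to 42152692, minus strand) had 41.4, 56.3 and 51.7 CPM in FOXP3-high, against 37.8, 36.4, 37.9 and 41.7 CPM in FOXP3-low. FOXP3-high replicate 1 fell within the FOXP3-low range for Foxo3, the only overlap among the 9 genes. The log2 fold change of Foxo3 was 0.37 ± 0.105 (95% interval 0.14 to 0.61, edgeR adjusted p = 0.0161). The call of Foxo3 was lost without FOXP3-high replicate 3 (0.34, adjusted p = 0.0520) and turned to -0.0799 (adjusted p = 0.567) with T cell identity scaling. The log2 ratio of Foxo1 to Foxo3 was -0.12 ± 0.17 in FOXP3-high and -0.51 ± 0.14 in FOXP3-low, with no overlap (exact permutation p = 0.0571, two-sided, adjusted p = 0.0735). Per length the most abundant FOXO gene was neither of these but Foxo4, at 69.8 ± 1.77 TPM in FOXP3-high and 39.2 ± 0.987 TPM in FOXP3-low, and Foxo6 had no count in any library. Foxo3 made up 17.5% to 22.1% of the family's TPM in FOXP3-high and 23.1% to 25.04% in FOXP3-low, without overlap, and the shares of Foxo1 overlapped (15.6% to 16.9% in FOXP3-high and 13.7% to 16.1% in FOXP3-low). Foxo1 overlaps the gene model Gm20402 on the opposite strand, which holds 29.9% as many counts and was also higher (log2 fold change 0.78, edgeR adjusted p = 0.00197), and the sources used here do not state whether strand was used in counting.

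The genes that control FOXO proteins through PI3K, AKT and SGK gave 11 higher and 5 lower of 25 tested, with a median log2 fold change of 0.13 (2 higher and 14 lower with T cell identity scaling). Over all genes the shares were 21.8% higher and 24.6% lower (5.58% and 49.0% with T cell identity scaling). Pik3ip1, an inhibitor of PI3K, was at 24.02 ± 2.06 CPM in FOXP3-high and 8.83 ± 1.03 CPM in FOXP3-low (log2 fold change 1.44 ± 0.119, edgeR adjusted p = 1.03e-05). Foxo4 rose by a log2 fold change of 0.68 ± 0.0581 (edgeR adjusted p = 1.28e-05). Rictor, a subunit of the mTORC2 kinase that phosphorylates AKT, rose by 0.64 with TMM and was at 0.20 when scaled to T cell identity genes, which did not pass (adjusted p = 0.114). Pik3ip1 overlaps Gm12592 on the opposite strand, which holds 11.7% as many counts.

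Genes known as FOXO targets, apart from the receptors above, went both ways. Of 22 tested, 11 were higher and 7 lower in FOXP3-high, with a median log2 fold change of 0.18 (7 higher and 10 lower with T cell identity scaling). Among all genes 21.8% were higher and 24.6% lower (5.58% and 49.0% with T cell identity scaling). Cdkn1b, the cell cycle inhibitor p27, was at 203 ± 15.2 CPM in FOXP3-high and 108 ± 4.22 CPM in FOXP3-low (log2 fold change 0.90 ± 0.0606, edgeR adjusted p = 2.90e-06). Gadd45a, a stress and growth arrest gene, was at 10.4 ± 1.28 CPM in FOXP3-high and 32.6 ± 3.0 CPM in FOXP3-low (log2 fold change -1.64 ± 0.115, edgeR adjusted p = 3.83e-06), and it overlaps E230016M11Rik on the opposite strand, which holds 14.7% as many counts. Trib1, a pseudokinase, fell by 1.27 on the log2 scale. Ccr7, the lymph node homing receptor, was at 14.4 ± 0.291 CPM in FOXP3-high and 32.6 ± 3.53 CPM in FOXP3-low (log2 fold change -1.18, edgeR adjusted p = 1.30e-05). Markers of macrophages, neutrophils and dendritic cells were lower in FOXP3-high as well, and their part in the fall of Ccr7 and the other genes was not tested.

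Foxp1 (ENSMUSG00000030067, chromosome 6, 98902299 to 99499682, minus strand) had 45.5, 50.3 and 48.7 CPM in FOXP3-high, against 30.7, 27.3, 30.2 and 29.5 CPM in FOXP3-low. The libraries of each group lay close together, with a coefficient of variation of 5.13% in FOXP3-high and 5.17% in FOXP3-low. The log2 fold change was 0.71 ± 0.0737 (edgeR adjusted p = 4.49e-05). A longer gene model on the same strand, Gm20696, overlaps Foxp1 and holds 75.9% as many counts. It was at 29.8 ± 2.96 CPM in FOXP3-high and 26.5 ± 2.6 CPM in FOXP3-low and did not pass the test (log2 fold change 0.17, edgeR adjusted p = 0.213), and the sources used here do not state how reads shared by gene models were assigned. The log2 ratio of Foxp1 to Foxp3 overlapped between groups, at -3.83 ± 0.15 in FOXP3-high and -3.57 ± 0.24 in FOXP3-low (difference -0.26, exact permutation p = 0.286, two-sided, adjusted p = 0.286). Foxp3 is the gene the samples were sorted by, so this ratio is not independent of the sort. Of 15 FOXP family and partner genes, 4 were higher and 2 lower (1 and 11 with T cell identity scaling, and 1 lower when FOXP3-high replicate 2 or 3 or FOXP3-low replicate 1 or 2 was left out), and besides Foxp3 the ones with the smallest adjusted p were Nfatc2, a partner of FOXP3 on DNA, with a log2 fold change of 0.58, and Gatad2b, a subunit of the NuRD repressor complex, with 0.36. Foxp3, whose rise follows from the sort, is among the 4 higher genes and was the 1 higher gene with T cell identity scaling. With that scaling Nfatc2 (0.13) did not pass and Gatad2b turned to -0.0896. The shares over all genes, higher and lower, were 21.8% and 24.6% with TMM and 5.58% and 49.0% with T cell identity scaling.

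Bach2 (ENSMUSG00000040270, chromosome 4, 32238804 to 32581199, plus strand) was the lowest of the 9 genes, resting on 95 to 106 counts per FOXP3-high library and 45 to 70 counts per FOXP3-low library. It had 9.09, 11.0 and 8.94 CPM in FOXP3-high, against 4.78, 3.65, 4.89 and 4.34 CPM in FOXP3-low. No library of one group reached the other (log2 fold change 1.13 ± 0.17, edgeR adjusted p = 4.88e-04). Bach2os, on the opposite strand, holds 23.4% as many counts and did not pass the test (log2 fold change 0.16, edgeR adjusted p = 0.730). Its relative Bach1, a repressor tied to haem and oxidative stress, went the other way, at 21.5 ± 2.0 CPM in FOXP3-high and 45.5 ± 4.53 CPM in FOXP3-low (log2 fold change -1.08 ± 0.104, edgeR adjusted p = 2.66e-05). Per length, Bach2 made up 19.7% to 23.1% of the BACH pair in FOXP3-high and 5.27% to 5.99% in FOXP3-low, and the ratio of Bach2 to Bach1 was 4.32-fold higher (exact permutation p = 0.0571, two-sided, adjusted p = 0.0735). Of 17 genes of the BACH, small MAF and BATF-AP-1 group, 2 were higher and 8 lower, with a median log2 fold change of -0.24 (0 and 14 with T cell identity scaling). The shares of all genes were 21.8% and 24.6% (5.58% and 49.0% with T cell identity scaling). Bach1, Nfe2l2 (NRF2, a regulator of antioxidant genes) and Maff had the smallest adjusted p of the group. Nfe2l2 fell by 1.37 and Maff by 1.34 on the log2 scale, and Maff overlaps Gm56727 on the opposite strand, which holds 10.6% as many counts. Macrophages also express Bach1 and Nfe2l2, and the macrophage markers, at 752 to 785 CPM in FOXP3-high and 2520 to 3095 CPM in FOXP3-low, were lower with them. Their part in that result was not tested.

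BACH2 is known to repress Prdm1, which encodes BLIMP1 and marks effector Treg cells. Prdm1 was at 55.3 ± 7.38 CPM in FOXP3-high and 55.8 ± 4.89 CPM in FOXP3-low and did not pass the test (log2 fold change -0.02, edgeR adjusted p = 0.918), but it passed as lower with T cell identity scaling (-0.47, adjusted p = 0.00302). The ratio of Bach2 to Prdm1 was 2.10-fold higher in FOXP3-high, and that of Tcf7 to Prdm1 3.38-fold higher, each without overlap (exact permutation p = 0.0571 for each, two-sided, adjusted p = 0.0735).

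Satb1 (ENSMUSG00000023927, chromosome 17, 52043215 to 52140318, minus strand) had 170.6, 186 and 156 CPM in FOXP3-high, against 98.0, 98.9, 89.0 and 96.2 CPM in FOXP3-low. Its lowest FOXP3-high library was 1.57 times its highest FOXP3-low library (log2 fold change 0.84 ± 0.0681, edgeR adjusted p = 9.26e-06). Of 12 tested partners of SATB1 and genome-folding genes, 3 were higher and 6 lower, with a median log2 fold change of -0.17 (2 and 9 with T cell identity scaling). Over all genes 21.8% were higher and 24.6% lower (5.58% and 49.0% with T cell identity scaling). Smc1a and Rad21, subunits of the cohesin ring, fell by 0.67 and 0.60 on the log2 scale, and Kmt2a, a histone methyltransferase, rose by 0.82. All 18 cell cycle genes fell as well, and the part of cell division in the fall of Smc1a and Rad21 was not tested. Mki67, which marks dividing cells, stood at 586 ± 39.2 CPM in FOXP3-high and 2874 ± 120.0 CPM in FOXP3-low (log2 fold change -2.29, edgeR adjusted p = 5.84e-08). Top2a and Mcm3, genes of DNA untangling and replication, fell by 2.21 and 1.90.

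Compared per length, Il7r was the most abundant of the 9 genes and Bach2 the least in both groups. In FOXP3-high the TPM levels ran in the order Il7r (317 ± 21.3), Tcf7 (151 ± 16.2), S1pr1 (103 ± 7.80), Satb1 (30.5 ± 1.95), Lef1 (29.6 ± 3.17), Foxo3 (22.4 ± 3.14), Foxo1 (17.9 ± 0.883), Foxp1 (11.9 ± 0.498) and Bach2 (3.31 ± 0.306). Satb1 and Lef1 overlapped in their library ranges, as did Foxo3 and Foxo1. The order in FOXP3-low was Il7r (83.2 ± 5.03), Tcf7 (40.4 ± 4.54), S1pr1 (23.7 ± 7.22), Foxo3 (15.6 ± 0.859), Satb1 (15.4 ± 0.661), Lef1 (12.4 ± 0.567), Foxo1 (9.53 ± 0.800), Foxp1 (6.56 ± 0.356) and Bach2 (1.36 ± 0.178). Here Tcf7 overlapped with S1pr1 and Foxo3 with Satb1. The first 3 places and the last 3 were held by the same genes in both groups, and Foxo3 stood above Satb1 and Lef1 in FOXP3-low and below them in FOXP3-high.

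**Figure D3:**
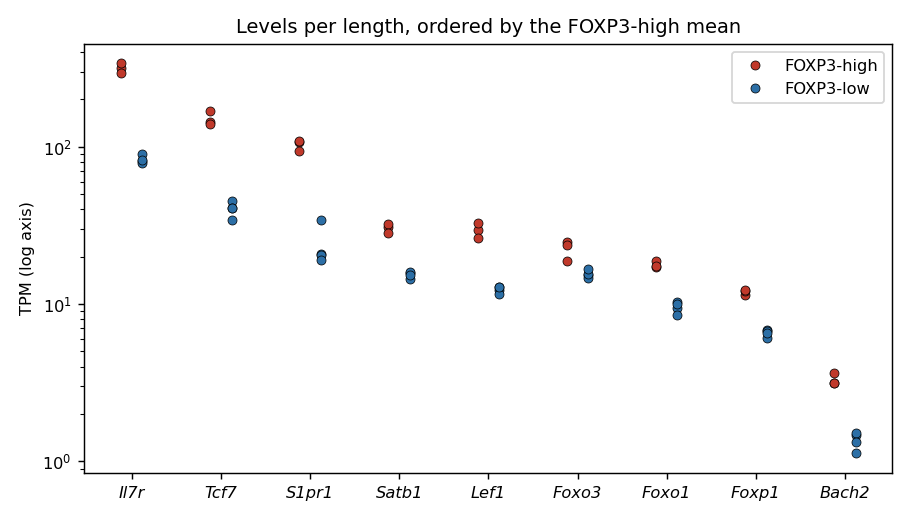
TPM (log axis) of the 9 genes in each library, ordered by their FOXP3-high mean, with FOXP3-high in red to the left of FOXP3-low in blue. Il7r spans 296 to 339 TPM in FOXP3-high and 78.4 to 90.3 TPM in FOXP3-low, and Bach2 is lowest in both groups.

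The 9 genes did not rank the libraries of a group alike. In FOXP3-high, replicate 2 had the highest CPM of 7 of the 9 genes, Tcf7 was highest in replicate 1 and S1pr1 in replicate 3. FOXP3-high replicate 2 also had the lowest summed melanoma (3298 CPM) and endothelial (74.3 CPM) markers of the FOXP3-high group and the highest summed T cell identity genes (5719 CPM, against 5022 and 5246 CPM in the other two FOXP3-high libraries). When each gene was set against the T cell identity genes of its own library, replicate 2 was highest for 3 of the 9 genes.

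T cell identity genes were themselves higher in FOXP3-high, and each of the 9 genes was also set against them. With libraries scaled to the 17 T cell identity genes, which moved the median of all genes to -0.44, 5.58% of tested genes were called higher, and 8 of the 9 genes were among them. The rise was then 2.85-fold for S1pr1, 2.502-fold for Il7r and 2.46-fold for Tcf7 (edgeR adjusted p = 3.80e-04, 3.31e-07 and 1.72e-05). Bach2 and Lef1 were 1.59-fold and 1.57-fold higher (adjusted p = 0.0112 and 5.21e-05). Satb1, Foxo1 and Foxp1 kept small rises of 1.31-fold, 1.23-fold and 1.20-fold (adjusted p = 1.70e-04, 0.00638 and 0.0431), and Foxo3, given above, did not pass. The mean log2 distance to the T cell identity genes in each library gave no overlap between groups for those 8 genes (exact permutation p = 0.0571 for each, two-sided, adjusted p = 0.0643 over 9) and overlapped for Foxo3 (p = 0.514, adjusted p = 0.514). By that distance every FOXP3-high library lay above every FOXP3-low library for 5.93% of all genes tested. The melanoma markers were higher in FOXP3-high under both scalings too, 11 of 11 tested with a median log2 fold change of 1.10 with TMM and 9 of 11 with a median of 0.65 with T cell identity scaling, where the 9 genes had medians of 1.10 and 0.65. The part of tumour cell RNA in the rise of the 9 genes was not tested.

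**Figure D4:**
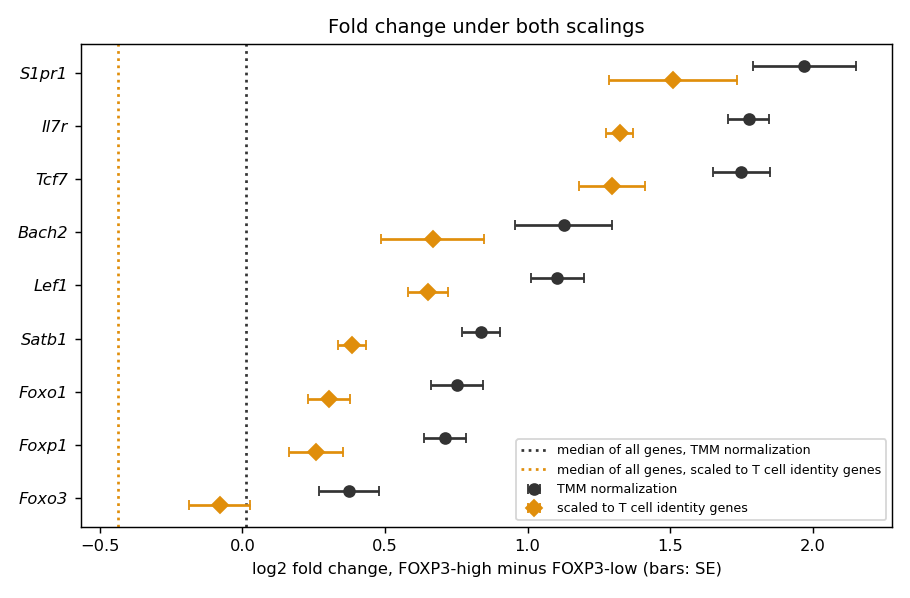
Log2 fold change of each gene, FOXP3-high minus FOXP3-low, with its SE, after TMM normalization (black circles) and with libraries scaled to T cell identity genes (orange diamonds), and dotted lines at the median of all genes under each. All 9 genes lie above the median of all genes under both, and Foxo3 lies at 0.37 with TMM and at -0.0799 with T cell identity scaling.

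Other genes of resting and central T cells also went both ways. Of 21 tested, 9 were higher and 5 lower in FOXP3-high, with a median log2 fold change of 0.36 (5 higher and 8 lower with T cell identity scaling). Among all genes the shares were 21.8% higher and 24.6% lower (5.58% and 49.0% with T cell identity scaling). Ets1, a transcription factor abundant in resting lymphocytes, was at 1180 ± 101 CPM in FOXP3-high and 670.2 ± 39.5 CPM in FOXP3-low (log2 fold change 0.82 ± 0.0657, edgeR adjusted p = 8.72e-06). Myb, a factor of progenitors and of dividing cells that is also needed in Treg cells, was at 17.4 ± 2.42 CPM in FOXP3-high and 76.6 ± 6.11 CPM in FOXP3-low (log2 fold change -2.14 ± 0.112, edgeR adjusted p = 7.72e-07), and it overlaps Gm26577 on the opposite strand, which holds 23.8% as many counts. Ccr7, given above, was the other member of this list with a fall among the 3 smallest adjusted p.

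Effector Treg genes went both ways. Of 24 tested, 12 were higher and 5 lower in FOXP3-high, with a median log2 fold change of 0.32 (7 higher and 12 lower with T cell identity scaling). Of all genes tested 21.8% were higher and 24.6% lower with TMM, and 5.58% and 49.0% with T cell identity scaling. The 12 that rose had log2 fold changes of 0.28 to 1.73. The 3 with the largest rise, chosen after their values were seen, were Il1rl1, the interleukin-33 receptor ST2 (1.73), Cxcr3, a chemokine receptor (1.07), and Icos, a costimulatory receptor (1.02), and each also passed as higher with T cell identity scaling (1.27, 0.62 and 0.57). Il1rl1 was at 241 ± 35.9 CPM in FOXP3-high and 73.0 ± 9.10 CPM in FOXP3-low (edgeR adjusted p = 2.73e-06). The 3 smallest adjusted p belonged to genes that fell. Havcr2, the inhibitory receptor TIM-3, was at 71.5 ± 3.70 CPM in FOXP3-high and 174 ± 11.4 CPM in FOXP3-low (log2 fold change -1.29 ± 0.067, edgeR adjusted p = 7.72e-07). Entpd1, the ectonucleotidase CD39, fell by 1.41 and Cd44, an adhesion receptor of activated cells, by 0.67 on the log2 scale. Macrophages express Havcr2, Entpd1 and Cd44 as well, and the part of the macrophage markers in their fall was not tested.

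**Figure D5:**
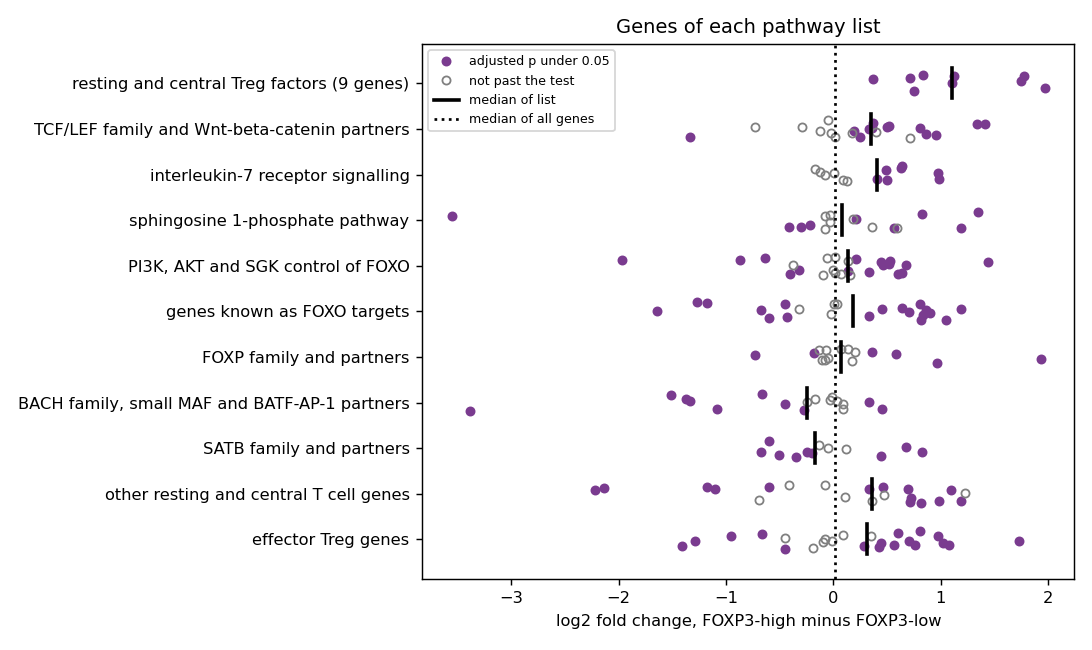
Log2 fold change, FOXP3-high minus FOXP3-low, of every tested gene in the 9 genes and in 10 lists of pathway, resting and effector genes (filled: adjusted p under 0.05, open: not past the test, bar: median of the list, dotted line: median of all genes). The 9 genes have a median of 1.10, the next highest medians among the lists drawn are 0.41 for interleukin-7 receptor signalling and 0.36 for other resting and central T cell genes, and the BACH and SATB1 partner lists have medians of -0.24 and -0.17.

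Among 9702 other genes with at least 5 CPM on average, the profile over the 7 libraries nearest to that of each of the 9 genes was taken by the root mean square difference of centred log2 CPM. Il7r lay nearest to Abcb1a, which encodes a drug efflux pump (0.0324), and Tmem64 (0.0622). For Tcf7 these were Zfp169 (0.0732) and Rasgrp2 (0.122), and for Lef1 Pear1 (0.0398) and Gbp8 (0.0408). S1pr1 had no close match, with Rflnb at 0.211 and Pde2a at 0.217. Foxo1 lay nearest to Plcg1, a phospholipase of T cell receptor signalling, and H2-Q5, Foxo3 to Kdm6a and Ttc13, Foxp1 to Iigp1 and Exoc6b, Bach2 to Zfp467 and Gvin3, and Satb1 to Shisa5 and Madd, with distances from 0.0233 to 0.0909. Gbp8 overlaps Gbp4 and Gbp9, and Pde2a overlaps Gm45837, on the same strand with a comparable number of counts, and H2-Q5, Gvin3, Iigp1 and Gbp8 belong to families of near copies, so their counts are uncertain. These profiles hold the difference between the groups as well as the spread within them.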

How the data were processed

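RNA was measured in 7 mouse samples, 3 FOXP3-high and 4 FOXP3-low, grouped and numbered by the sample titles. The authors deposited whole-number counts per gene in 1 table with gene coordinates and a gene length, without normalization. The submitters' processing notes name fastp 0.23.4, STAR 2.5.3a and featureCounts as tools, and GRCm39 and GRCh38 as builds, of which the mouse coordinates are given here as GRCm39. The sources used here do not state the strand setting or the treatment of shared and duplicate reads. Per the labels, RNA was taken up in TRIzol and 100 to 200 ng of it went into a stranded mRNA kit. Other per-sample columns numbered 0, and 0 rows lacked a gene name.

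The test was that of edgeR 4.0.16 in R 4.3.3 (filterByExpr at its defaults, 10 counts per library and 15 in all, TMM, glmQLFit and glmQLFTest without a block, Benjamini-Hochberg over 15838 genes, threshold 0.05). Total counts give 9.00 to 14.3 counts at 1 CPM. Counts of replicates differed by more than counting noise in every pair (chi-square per gene 3.98 to 12.2, genes with at least 20 counts), so all 7 were kept. TPM used the deposited counts and lengths. Ratios within a library used log2(CPM + 0.5) and a two-sided exact permutation test, adjusted over 9 ratios, of which 1 is not reported here. The edgeR step was tested on simulated data in 3 runs. Each run changed 67 genes by 1.5-fold, 67 by 2-fold and 66 by 4-fold, of 15488 to 15518 genes. It recovered 22.4% to 34.3% of 1.5-fold, 55.2% to 61.2% of 2-fold and 74.2% to 87.9% of 4-fold changes. Each run gave 10 to 13 false calls. In the real data 7357 genes were called. With so few changed genes the adjustment is stricter in the simulation, so these shares do not carry over to the real comparison. A gene that did not pass can still differ. The SE of a log2 fold change is its size over the root of F.

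The 9 genes, the 21 lists around them, tests and alternatives were chosen with earlier results of these data known. All 328 list entries matched a symbol. Genes named are the 9, Foxp3, ratio partners, up to 3 genes per pathway list with the smallest adjusted p under 0.05, and the 2 nearest profiles of each of the 9. Family shares, the paralogs they name, the marker genes Pecam1, Cdh5 and Tie1, 3 effector genes that rose and genes without a count were chosen after their values were seen. Alternatives were other scalings, other filters, DESeq2 1.42.0, limma-voom (limma 3.58.1), leaving out libraries, a replicate block and a pseudocount of 2.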

Additional observations from a re-analysis of the deposited data

Results flagged for a closer look

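Chance marks about 1 in 20 groups by the test used here, a gap between the highest or lowest library and its neighbour relative to the range of the 4 FOXP3-low libraries. Of 73 values examined 7 were marked, and each of the 7 was marked for FOXP3-low replicate 3. S1pr1 was at 33.98 CPM in that library, against 19.1 to 20.6 CPM in the other FOXP3-low libraries. Its log2 ratio to Cd69 was -0.50, against -1.34 to -1.26, and its log2 distance to the T cell identity genes -2.21, against -3.17 to -3.03. Summed endothelial markers were at 350.5 CPM there, against 104.5 to 129 CPM, and summed fibroblast and pericyte markers at 1477 CPM, against 794 to 891 CPM. The fibroblast and pericyte sum includes Thy1, which is also among the T cell identity genes. Stat5b was lower in that library, at 131.4 CPM against 142 to 143 CPM, and so was Il2ra, at 493.7 CPM against 545 to 548 CPM. What sets that library apart was not tested.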

How the results depend on the processing

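Of the 9 genes, 8 kept their direction and their call in all 17 alternatives, with log2 fold changes of 1.51 to 2.20 for S1pr1, 1.32 to 1.84 for Il7r, 1.30 to 1.83 for Tcf7, 0.65 to 1.20 for Lef1, 0.67 to 1.23 for Bach2, 0.38 to 0.90 for Satb1, 0.30 to 0.82 for Foxo1 and 0.26 to 0.78 for Foxp1. Foxo3 turned to -0.0799 with T cell identity scaling, was 0.33 (adjusted p = 0.0703) without both libraries numbered 3, and ran from 0.30 to 0.46 when each library was left out (adjusted p up to 0.0520). Its distance to the T cell identity genes, -0.0884, ran from -0.166 to 0.0273 when each library was left out. T cell identity scaling gave 883 genes higher and 7765 lower in place of 3459 and 3898, and moved the median of all genes from 0.01 to -0.44. It also gave, higher and lower, 3 and 7 for the TCF/LEF list, 2 and 6 for interleukin-7 receptor signalling, 2 higher for the sphingosine list, 2 and 14 for PI3K, AKT and SGK, 7 higher for FOXO targets, 1 and 11 for FOXP partners, 0 and 14 for BACH partners, 5 and 8 for other resting genes and 7 and 12 for effector genes. The 1 lower gene of the TCF/LEF list became 2 with no filter, with at least 50 counts in 3 libraries, with the replicate block and without both libraries numbered 3, and interleukin-7 receptor signalling gained 1 lower gene with no filter and with the DESeq2 Wald test. FOXP partners had 1 lower without both libraries numbered 3. When each library was left out in turn, the TCF/LEF list gave 7 to 12 higher and 1 to 2 lower, interleukin-7 receptor signalling 0 to 1 lower and FOXP partners 1 to 2 lower. Jak1 turned to -0.0436 and Gatad2b to -0.0896 with T cell identity scaling. Prdm1, at -0.02 with TMM, turned to 0.0337 with upper quartile factors and 0.0508 with total counts, and ran from -0.0988 to 0.0442 when each library was left out.

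Correlations of deviations from the group mean between libraries of the same number were -0.101, 0.0965 and 0.53 for the numbers 1, 2 and 3. Between libraries of different numbers they ran from -0.547 to 0.344, so the libraries numbered 3 had the largest correlation. Whether the samples numbered 3 share an origin was not tested. With the replicate block 7029 genes were called in place of 7357, 3294 higher and 3735 lower, and all 9 genes remained higher, Foxo3 by 0.40 (adjusted p = 0.0153). Depth limits Bach2, at 45 to 106 counts per library, and with 3 against 4 samples no exact test can go below p = 0.0571.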
